A study of Mus musculus with 7 samples.

Results

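The 39 Hox genes of the mouse were followed in the pancreas of embryos at E15.5, chosen as all genes whose Ensembl identifier carries a symbol of the Hoxa, Hoxb, Hoxc or Hoxd cluster. The count table held a row for 35 of them among its 27138 features, and 25 had enough counts to be tested. Hoxb13, Hoxc12, Hoxc13 and Hoxd1 were not analysed here. Polyadenylated RNA of the pancreas was sequenced in 7 libraries, each from a separate animal. The 4 WT embryos were mLINC00673fl/fl and are listed with no Cre. The 3 cKO embryos were Pdx1Cre, mLINC00673fl/fl, so floxed alleles were common to both groups, placed at 2610035D17Rik, a long non-coding RNA gene that is orthologous to human LINC00673. Pdx1 drives Cre in the pancreatic epithelium, so the deletion leaves the mesenchyme, nerves and vessels of the organ with the floxed alleles. Because WT is listed with no Cre, the deletion and Cre itself cannot be told apart, and the labels name no strain, sex or litter.

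Hox genes encode homeodomain transcription factors that give cells along the head-to-tail axis their position. They lie in 4 clusters on separate chromosomes, and genes at the same place in different clusters form paralog groups numbered 1 to 13. The low numbers are switched on first and reach farthest towards the head, and the high numbers mark the lumbar, sacral and tail regions, the distal limb and the end of the gut. Their proteins bind DNA together with the TALE factors, among them the Meis proteins. In the pancreas Hox genes are known chiefly from the mesenchyme, where the group 6 genes act on endocrine differentiation, whereas the epithelium is specified by the related ParaHox factor Pdx1. Neural crest cells of the trunk, which form sympathetic neurons, also carry a Hox code.

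All 39 genes share the homeobox, the stretch that codes for the DNA-binding homeodomain, and its similarity bears on how reads are assigned. Over the whole homeobox the median identity of bases was 80.6% for 42 pairs within a paralog group and 60.6% for 699 pairs across groups, in the GENCODE M21 transcripts on GRCm38. The part that codes for the recognition helix, 51 bases, is shown for 4 members on which the results turn, 5′ to 3′ in the sense of the transcript, with bases that differ from Hoxa5 in capitals.
Hoxa5: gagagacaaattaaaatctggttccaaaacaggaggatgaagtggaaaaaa
Hoxb6: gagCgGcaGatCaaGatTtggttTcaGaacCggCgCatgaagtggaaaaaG
Hoxc9: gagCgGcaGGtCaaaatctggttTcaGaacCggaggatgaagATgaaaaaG
Hoxa10: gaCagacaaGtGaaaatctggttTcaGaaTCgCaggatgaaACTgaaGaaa
In this part Hoxb6, Hoxc9 and Hoxa10 differed from Hoxa5 by 12, 11 and 12 bases. Of the 741 pairs of Hox genes, 4 shared an identical window of 50 bases. For Hoxd3 with Hoxd4 and Hoxc10 with Hoxc5 the shared bases are exons that the annotation gives to both genes. Hoxa6 and Hoxb4 shared an identical run of 52 bases, nearly all of it in the part for the recognition helix. Hoxb9 and Hoxc9 shared a run of 50 bases, a repeat of c and t. The differences from Hoxa5 therefore do not show how far other members can be told apart.

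Promoter sequences, from 250 bases before to 50 after the transcription start, were matched for 22 of the 39 genes in RefSeq on GRCm38.p6. Those of Hoxa5 and Hoxb4, the 2 members with the highest level per kilobase, and of Hoxa9, a member with a large spread between libraries, are shown 5′ to 3′ on the strand of the gene, with AGGTCA (or its reverse complement) in capitals. AGGTCA is the core motif that nuclear receptors such as the retinoic acid receptors bind, and retinoic acid is a known input to Hox clusters.
Hoxa5, chr6:52204538-52204837, minus strand: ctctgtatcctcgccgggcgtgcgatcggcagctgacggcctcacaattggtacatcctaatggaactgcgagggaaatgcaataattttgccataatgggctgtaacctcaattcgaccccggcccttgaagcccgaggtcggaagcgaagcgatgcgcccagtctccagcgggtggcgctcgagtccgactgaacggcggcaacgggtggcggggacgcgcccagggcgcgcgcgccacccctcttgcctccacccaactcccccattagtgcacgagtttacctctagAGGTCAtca
Hoxb4, chr11:96318017-96318316, plus strand: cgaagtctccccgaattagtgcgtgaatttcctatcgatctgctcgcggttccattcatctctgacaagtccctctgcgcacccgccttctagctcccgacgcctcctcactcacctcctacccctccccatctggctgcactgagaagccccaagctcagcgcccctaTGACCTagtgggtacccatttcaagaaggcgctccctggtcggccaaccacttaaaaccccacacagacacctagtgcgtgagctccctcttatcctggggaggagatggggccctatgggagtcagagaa
Hoxa9, chr6:52227321-52227620, minus strand: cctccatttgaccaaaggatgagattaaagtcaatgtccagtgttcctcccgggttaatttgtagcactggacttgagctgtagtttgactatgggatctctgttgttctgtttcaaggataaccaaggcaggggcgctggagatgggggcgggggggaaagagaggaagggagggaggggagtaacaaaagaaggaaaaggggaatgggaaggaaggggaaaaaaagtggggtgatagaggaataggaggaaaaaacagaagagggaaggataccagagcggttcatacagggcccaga
The motif AGGTCA, searched on both strands, was present in 7 of the 22 Hox promoters (Hoxa5, Hoxb4, Hoxc4, Hoxd3, Hoxd4, Hoxd8 and Hoxd10), and 16.0% of the 27025 promoters of the same length in the table held it. A match describes the letters only. The median Hox promoter held 13.5 CpG dinucleotides, against 7 over all promoters, with 29 in Hoxa5, 14 in Hoxb4 and 4 in Hoxa9. Of all promoters, 36.9% held as many as the median Hox promoter or more. Hoxa10, another member with a large spread, held 12 in its first listed promoter and 21 in its second.

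The libraries held 14883918 to 17767373 counts. The targeted gene 2610035D17Rik was lower in every cKO library, with 8.65 ± 0.498 CPM (counts scaled to the size of the library) for WT (SD, n = 4) against 2.55 ± 0.726 CPM for cKO (SD, n = 3). Its log2 fold change was −1.76 (SE 0.215), with a Benjamini-Hochberg adjusted p of 0.0902 in edgeR's quasi-likelihood test, above the threshold of 0.05, and 9.3e-10 in DESeq2. Of the 12 pancreatic epithelium markers all 12 were tested, and they summed to 6301 to 10702 CPM in WT and 5885 to 7263 in cKO. Genes of neighbouring organs stood out in single libraries. Liver markers summed to 1237 CPM in WT replicate 4 and 1915 in cKO replicate 1 but 305 to 418 in the other 5. Adrenal and gonad markers reached 211 CPM in WT replicate 3 and at most 19.9 elsewhere, and skeletal muscle markers 207 CPM in cKO replicate 3 and at most 26.2 elsewhere. Over the 7 libraries the other marker lists summed to 222 to 329 CPM (mesothelium), 196 to 359 CPM (smooth muscle), 518 to 636 CPM (endothelium), 157 to 252 CPM (macrophages and leukocytes), 966 to 2824 CPM (erythroid), 11.9 to 22.9 CPM (spleen), 5.08 to 12.3 CPM (stomach), 17.02 to 33 CPM (intestine), 70.7 to 89.5 CPM (kidney) and 66.3 to 129 CPM (cartilage). Of 118 tested markers in 17 lists edgeR called 0, and 2 (Fcgr3 and Tnnt3) had an unadjusted p under 0.05. In tissue libraries of this kind, fewer cells of a type and less RNA per cell cannot be told apart.

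Hox transcripts made up a small share of the RNA, 14740 counts over the 7 libraries or 0.0124% of all counts, and 24 of the 35 members with a row reached a mean of 1 CPM. Levels are compared between genes as CPM per kilobase of annotated exon. On that scale paralog groups 1 to 5 held 61.8% of the summed Hox level, groups 6 to 8 held 29.9% and groups 9 to 13 held 8.37%. These shares are of means over the 7 libraries, and the libraries differed. Groups 1 to 5 summed to 29.6 to 33.9 CPM per kb over the libraries and groups 6 to 8 to 9.99 to 20.7. Groups 9 to 13 summed to 7.29, 0.717, 5.56 and 3.23 in WT replicates 1 to 4 and 9.46, 1.95 and 2.07 in cKO replicates 1 to 3, in CPM per kb, so that their level was lowest in WT replicate 2 and highest in cKO replicate 1. Group 5 had the largest share (27.1%) and group 4 the next (20.04%). By cluster, Hoxa held 42.2%, Hoxb 34%, Hoxc 15.3% and Hoxd 8.55%. Across the 35 genes the level per kilobase and the paralog number had a Spearman rho of −0.43. It is given as a description because genes of a cluster are not independent. The shares and the rho use full exon lengths. Some members share exon bases with other genes, among them Hoxb3 (52.9%), Hoxa3 (27.1%) and Hoxa11 (34.98%), so unknown assignment of such reads makes these values uncertain.

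**Figure D1:**
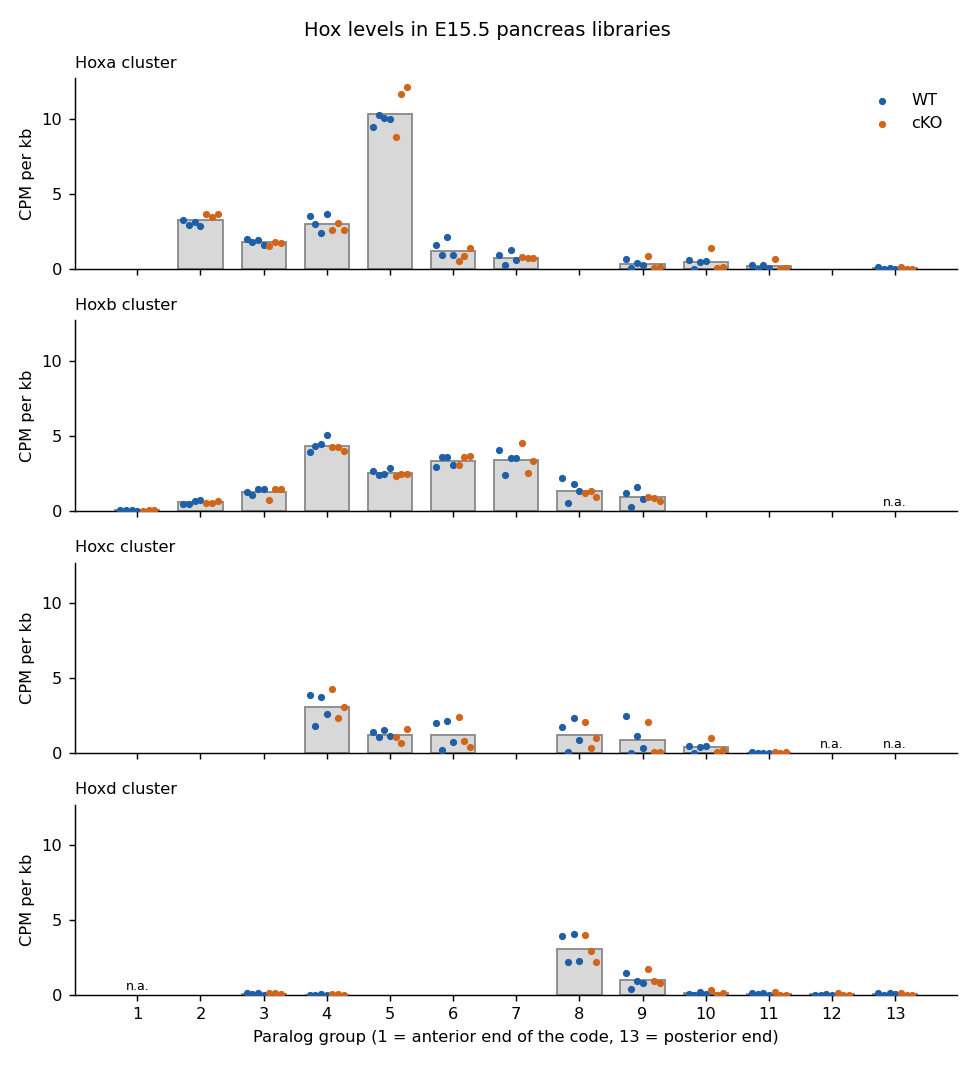
Level of the Hox genes shown in CPM per kilobase of exon (linear axis) by paralog group, in 1 panel per cluster; bars are means over 7 libraries, blue points the 4 WT and orange points the 3 cKO libraries, and n.a. marks a gene not analysed here. Hoxa5 stands above all others, the Hoxb genes of groups 4 to 7 lie between 2.49 and 4.31, and Hoxd3 and Hoxd4 are near the baseline while Hoxd8 is not.

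Hoxa5, known for its part in lung and axial patterning, was the highest member. It was counted at 17.7, 19.3, 18.9 and 18.7 CPM in WT replicates 1 to 4 and 16.4, 21.8 and 22.7 CPM in cKO replicates 1 to 3. The 7 libraries lay close together and the groups overlapped, with 9.93 ± 0.348 CPM per kb in WT (SD, n = 4) and 10.8 ± 1.796 in cKO (SD, n = 3). Hoxb4, a gene also known from blood progenitors, came next with 10.1, 11.1, 11.5 and 12.9 CPM in WT replicates 1 to 4 and 10.8, 10.9 and 10.3 CPM in cKO replicates 1 to 3. It was below Hoxa5 in every library, at 4.43 ± 0.453 CPM per kb in WT (SD, n = 4) and 4.16 ± 0.131 in cKO (SD, n = 3), but Hoxb7, Hoxc4 or Hoxd8 lay above it per kilobase in some libraries. The next 4 were Hoxb7, Hoxb6, Hoxa2 and Hoxd8, with means over the 7 libraries of 3.396, 3.33, 3.25 and 3.08 CPM per kb and SDs over these libraries of 0.756, 0.321, 0.327 and 0.888. Hoxc4 and Hoxa4 followed closely, at 3.08 and 2.95 CPM per kb. The means of Hoxb7, Hoxb6, Hoxa2 and Hoxd8 differed from one another by less than the larger of these SDs. Hoxb7 and Hoxb6, both active in the trunk mesoderm, differed in how they varied. Hoxb7 had 6.21, 3.697, 5.44 and 5.44 CPM in WT replicates 1 to 4 and 6.92, 3.85 and 5.14 CPM in cKO replicates 1 to 3, with its 2 lowest values in WT replicate 2 and cKO replicate 2. Hoxb6 had 5.67, 6.98, 7.01 and 5.94 CPM in WT replicates 1 to 4 and 6.03, 7.05 and 7.13 CPM in cKO replicates 1 to 3, with its lowest values in WT replicates 1 and 4 and cKO replicate 1. Hoxd8, a trunk gene of the Hoxd cluster, had 10.8, 6.02, 11.1 and 6.22 CPM in WT replicates 1 to 4 and 10.99, 7.99 and 6.08 CPM in cKO replicates 1 to 3, so that WT replicates 1 and 3 and cKO replicate 1 stood clear of the other 4. Their order also depends on the exon length used. Hoxa2 stood at 3.82 CPM per kb when its whole CPM was divided by the length of the exons that no other gene shares.

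The clusters did not share one profile along the axis. In Hoxa, Hoxa5 stood far above its neighbours, with 2.95 CPM per kb for Hoxa4, 1.18 for Hoxa6 and 0.743 for Hoxa7. In Hoxb the levels were 1.26 CPM per kb for Hoxb3, 2.49 for Hoxb5, 1.33 for Hoxb8 and 0.887 for Hoxb9, and Hoxb1 lay at 0.0212. In Hoxd the 2 anterior genes Hoxd3 and Hoxd4 had 0.0849 and 0.01396 CPM per kb, below Hoxd8 (3.08) and Hoxd9 (0.997) in each of the 7 libraries. Hoxd3 and Hoxd4 share 62.8% and 52.3% of their exon bases with other genes, and Hoxb3 52.9%, so their counts depend on how such reads were assigned and are uncertain. Within group 6, whose members act in the pancreatic mesenchyme, Hoxb6 lay above Hoxa6 and Hoxc6 in the mean (3.33, 1.18 and 1.21 CPM per kb) and in every library. These levels do not say which cells of the organ hold the transcripts.

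Other genes of groups 1 to 5 overlapped between the groups. In CPM, the WT and cKO means (SD, n = 4 and n = 3) were 1.93 ± 0.507 and 1.92 ± 0.222 for Hoxb2, 10.9 ± 0.938 and 10.05 ± 0.987 for Hoxa3 and 5.51 ± 0.781 and 5.104 ± 1.76 for Hoxb3, all known from hindbrain and branchial arch patterning. They were 7.12 ± 0.574 and 6.72 ± 0.194 for Hoxb5 and 3.91 ± 0.6504 and 3.37 ± 1.52 for Hoxc5. Hoxc4, at 7.67 ± 2.503 and 8.22 ± 2.48 CPM, had the widest range of CPM among them, and its 3 highest libraries were WT replicates 1 and 3 and cKO replicate 1. Of groups 7 to 9, the means were 2.13 ± 1.25 and 2.14 ± 0.1499 CPM for Hoxa7, 3.84 ± 1.87 and 3.04 ± 0.492 for Hoxb8, 2.41 ± 1.43 and 2.11 ± 0.362 for Hoxb9 and 1.89 ± 0.949 and 2.45 ± 1.07 for Hoxd9, genes of the thoracic and lumbar levels.

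Most genes of the posterior groups were close to the limit of detection. Hoxa11, Hoxa13, Hoxc11, Hoxd10, Hoxd11, Hoxd12 and Hoxd13, which pattern the kidney, limb and hindgut, had means between 0.0241 and 0.381 CPM and were not tested. Hoxb1, Hoxd3 and Hoxd4 were the other 3 members with too few counts to test. Of the posterior genes not tested, Hoxa11 had the most counts and held 10, 0, 9 and 1 counts in WT replicates 1 to 4 and 25, 0 and 1 in cKO replicates 1 to 3. Its counts lay chiefly in WT replicates 1 and 3 and cKO replicate 1, and 34.98% of its exon bases are shared with other genes. Reads of the antisense gene Hoxa11os, which held at most 8 counts in a library, cannot be told apart from it where exons overlap, since the library protocol describes no strand marking. A count of 0 allows at most 0.162 to 0.212 CPM in these libraries, for counting error only. Of the 8 kidney markers 7 had a row. They summed to 89.5, 70.8, 85.5 and 74.6 in WT replicates 1 to 4 and 88.96, 70.7 and 72.9 in cKO replicates 1 to 3, in CPM, so that WT replicates 1 and 3 and cKO replicate 1 were the 3 highest here too. Of the 7, Eya1 ran from 1.79 CPM in WT replicate 2 to 25.9 in cKO replicate 1 and Osr1 from 58.5 to 63.6 CPM, while Pax2, Pax8 and Umod had at most 3 counts in any library. The part of kidney tissue in the posterior counts was not tested.

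The members differed widely in how much they varied between embryos. Spread was measured as edgeR's biological coefficient of variation (BCV), the variation left within the groups once counting noise is taken off. It had a median of 0.302 over the 25 tested members and 0.172 over all 16910 tested features, and 23 of the 25 members lay above the latter. That background holds features of every level, and features of like CPM were not compared. Hoxa5 (0.152) and Hoxb4 (0.167) had the smallest BCV. The largest belonged to Hoxc9 (1.603), Hoxa10 (1.31), Hoxc10 (1.01) and Hoxc8 (1.01). For the 11 tested genes of groups 1 to 5 the BCV ran from 0.152 to 0.312 (median 0.226), and for the 14 of groups 6 to 10 from 0.198 to 1.603 (median 0.444). Over the 25 genes, BCV had a Spearman rho of 0.76 with the paralog number and of −0.75 with the mean CPM, and the parts of position and level were not tested.

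**Figure D2:**
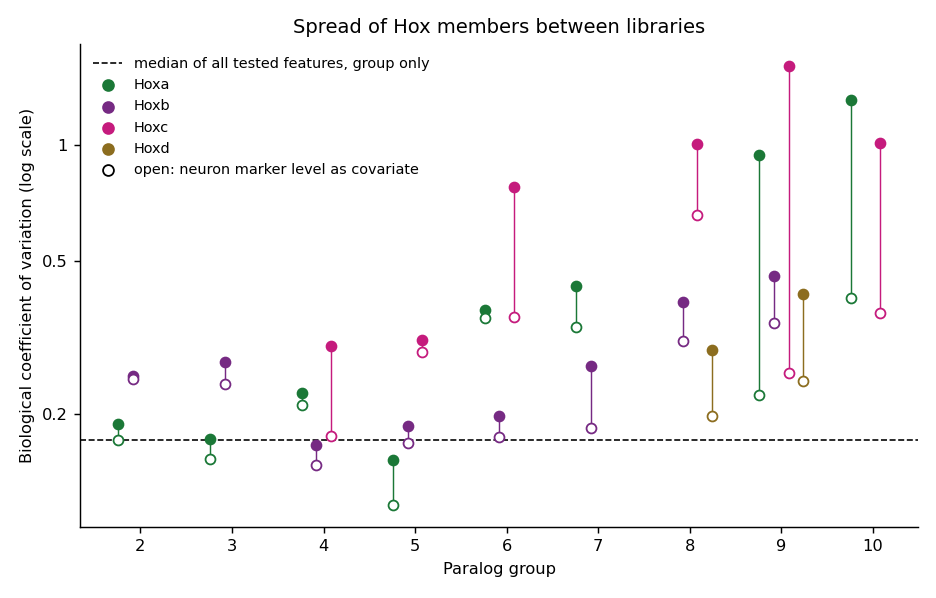
Biological coefficient of variation (log axis) of 24 of the 25 tested Hox genes by paralog group, coloured by cluster; filled points come from the fit with the group alone, open points from the fit with the summed neuron marker level added, and the dashed line is the median of all tested features (0.172). Filled points lie near the line up to group 5 and reach 1.60 at Hoxc9, whose open point lies at 0.256.

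The high and the low values of the variable members fell largely in the same libraries. Hoxc9, a trunk-level gene of the spinal cord and sympathetic chain, held 109, 0, 48 and 11 counts in WT replicates 1 to 4 and 83, 1 and 3 in cKO replicates 1 to 3. It was high in WT replicates 1 and 3 and cKO replicate 1, intermediate in WT replicate 4 and at 1 to 3 counts or absent in the other 3, so that both groups spanned the whole range. WT replicate 1 was at least 32.9-fold higher than WT replicate 2, taken at a floor of 3 counts in that library. Hoxc8, which helps to specify brachial and thoracic levels, held 4.81, 0.0596, 6.601 and 2.33 CPM in WT replicates 1 to 4 and 5.79, 0.888 and 2.76 CPM in cKO replicates 1 to 3. Its highest 3 libraries were the same as for Hoxc9, and WT replicate 2, with 1 count, was the lowest.

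Hoxa9 and Hoxc6 had the same 3 highest libraries, though not in the same order. Hoxa9 had 3.46, 0.238, 2.14 and 1.27 CPM in WT replicates 1 to 4 and 4.55, 0.296 and 0.497 CPM in cKO replicates 1 to 3. Hoxc6 had 4.76, 0.417, 5.095 and 1.696 CPM in WT replicates 1 to 4 and 5.67, 1.89 and 0.939 CPM in cKO replicates 1 to 3. In both, WT replicates 1 and 3 and cKO replicate 1 lay above the other 4 libraries, and WT replicate 2 was the lowest. The group 10 genes differed in 1 library. Hoxa10 was counted at 1.84, 0, 1.56 and 1.63 CPM in WT replicates 1 to 4 and 4.61, 0.118 and 0.276 CPM in cKO replicates 1 to 3, and Hoxc10 at 0.919, 0, 0.753 and 0.919 CPM in WT replicates 1 to 4 and 1.83, 0.0592 and 0.387 CPM in cKO replicates 1 to 3. Here WT replicate 4 lay beside WT replicates 1 and 3, and cKO replicate 1 was the highest in both genes.

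WT replicates 1 and 3 and cKO replicate 1 were the 3 highest libraries for 9 of the 25 tested members (Hoxa7, Hoxa9, Hoxb7, Hoxb9, Hoxc4, Hoxc6, Hoxc8, Hoxc9 and Hoxd8), where 8.33% of all tested features had these 3 highest. These 3 libraries were picked after the values of these genes were seen, and genes of a cluster are not independent. The count is therefore a description and not a test against that share. Of the 9, 8 belong to groups 6 to 10 and 1, Hoxc4, to groups 1 to 5. WT replicate 2 was the lowest library for 12 of the 14 tested genes of groups 6 to 10 and for 2 of the 11 of groups 1 to 5. The 2 exceptions in groups 6 to 10 were Hoxa6, lowest in cKO replicate 1, and Hoxb6, lowest in WT replicate 1. The share of all tested features lowest in WT replicate 2 is not given here, so these counts are not read as particular to Hox genes. Summed over each cluster, Hoxc counted 30.6, 8.35, 29.4 and 15.8 in WT replicates 1 to 4 and 32.3, 10.8 and 17.1 in cKO replicates 1 to 3, in CPM, and Hoxd 14.97, 7.27, 14.8 and 8.197 in WT replicates 1 to 4 and 17.2, 10.5 and 8.29 in cKO replicates 1 to 3. The Hoxa sum moved only between 42.7 and 52.1 CPM and the Hoxb sum between 36.5 and 47.9. WT replicate 2 was the lowest library in all 4 sums.

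**Figure D3:**
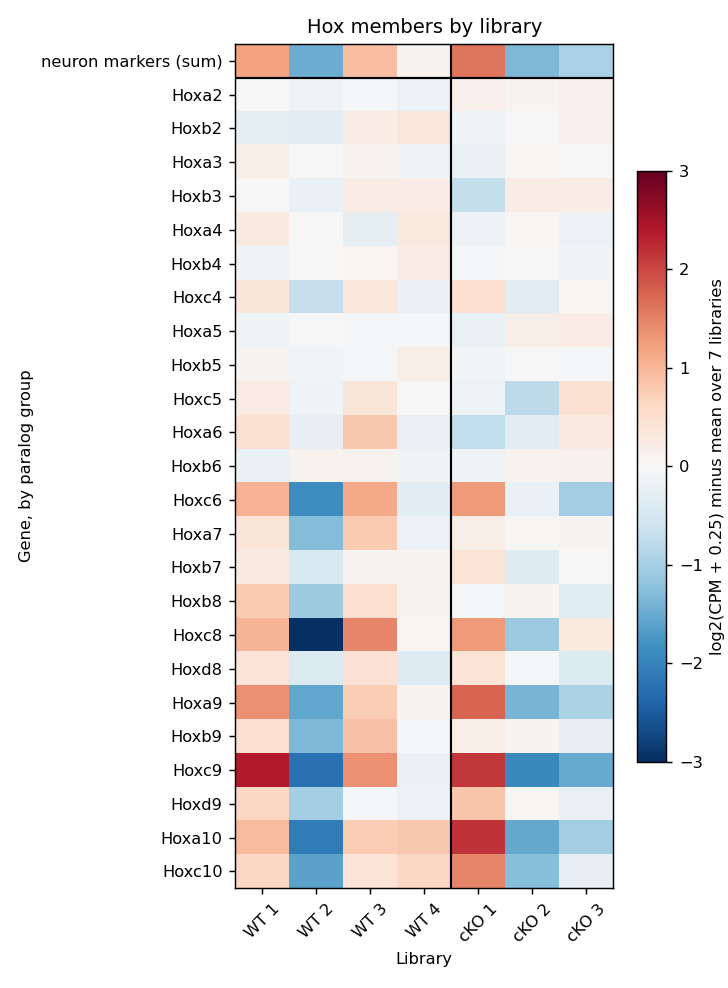
The values of 24 of the 25 tested Hox genes (rows, by paralog group) in each library (columns, WT left and cKO right of the line), as log2(CPM + 0.25) minus the mean over the 7 libraries, with the sum of 14 neuron markers in the top row; colours stop at a difference of 3. Rows of groups 1 to 5 are pale, and from Hoxc6 on most rows are red in WT 1, WT 3 and cKO 1 and blue in WT 2.

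WT replicates 1 and 3 and cKO replicate 1 were also the 3 highest libraries for the sums of 3 of the 17 marker lists: neurons, kidney, and adrenal and gonad. The adrenal and gonad sum was high in WT replicate 3 alone, and the kidney sum varied little in comparison. Of the neuron markers, all 14 (among them Th and Dbh of noradrenaline synthesis, the autonomic factor Phox2a, Tubb3, Stmn2 and Prph) had rows, none was at 0, and they summed to 1314, 202, 1052 and 600 in WT replicates 1 to 4 and 1734, 220 and 288 in cKO replicates 1 to 3, in CPM. Their range was 202 to 1314 CPM in WT and 220 to 1734 in cKO. Dbh, the last enzyme of noradrenaline synthesis, ran from 1.18 CPM in cKO replicate 2 to 163 in WT replicate 1. Schwann and crest glia markers summed to 148 to 175 CPM and pancreatic mesenchyme markers to 10190 to 12508 CPM over the 7 libraries, narrower ranges than that of the neuron markers.

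With the summed neuron marker level as a covariate, an alternative chosen after the data were seen, the BCV of Hoxc9 was 0.256 in place of 1.603. It was 0.225 in place of 0.943 for Hoxa9, 0.401 in place of 1.31 for Hoxa10 and 0.358 in place of 0.779 for Hoxc6. With the covariate the largest value was that of Hoxc8, 0.658 in place of 1.01. Hoxa6 (0.372 and 0.356) and Hoxb2 (0.252 and 0.247) hardly moved. Most of the members named here had a large BCV to begin with. Over the 25 members the median went from 0.302 to 0.244, and over all tested features from 0.172 to 0.139. With the covariate 94.7% of features were lower, so the 25 of 25 members that were lower are near the background. The part of nerve cells in the Hox differences was not tested.

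**Figure D4:**
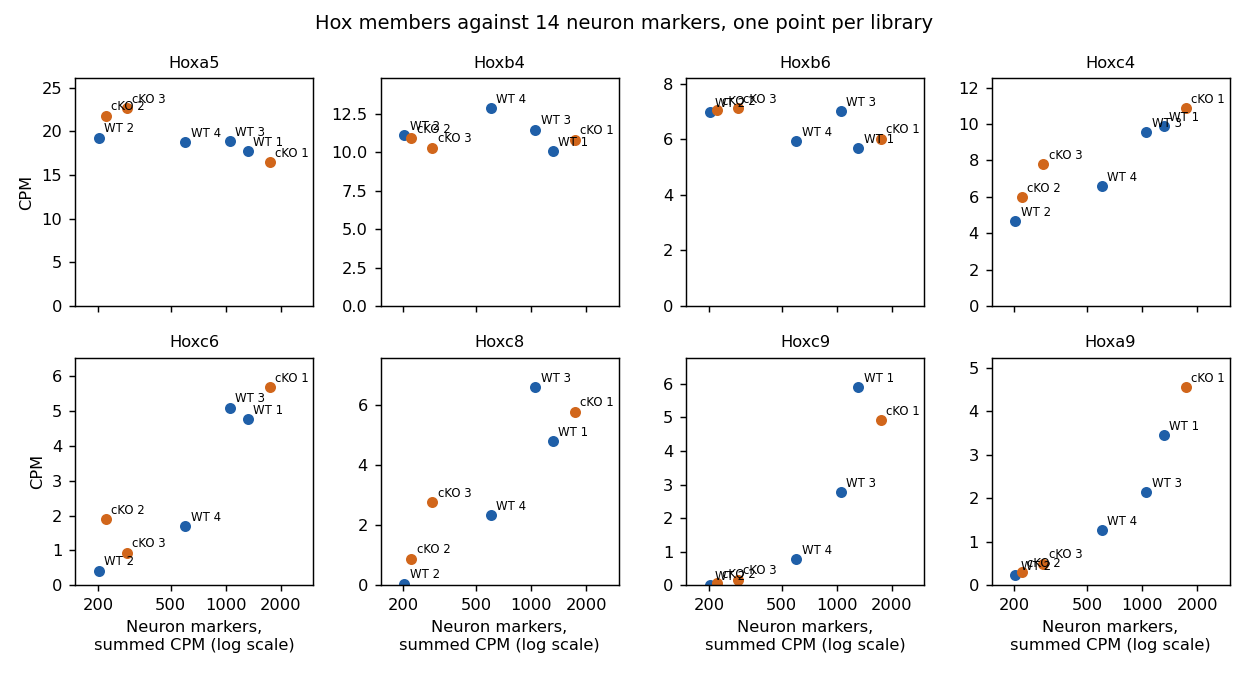
CPM of 8 Hox genes (vertical, linear axes from 0) against the summed CPM of 14 neuron markers (horizontal, log axis), with 1 labelled point per library, WT in blue and cKO in orange. Hoxa5, Hoxb4 and Hoxb6 stay level or are slightly lower where the markers are high, and Hoxc4, Hoxc6, Hoxc8, Hoxc9 and Hoxa9 are highest in WT 1, WT 3 and cKO 1.

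Against this spread, no Hox gene passed the test between cKO and WT, the comparison that asks whether the Hox code differs when 2610035D17Rik is deleted in the epithelium. edgeR's quasi-likelihood test called 0 of the 25 members, where it called 0.00591% of all tested features. At an unadjusted p under 0.05 it listed 0 members (1.38% of all features), and DESeq2 and limma-voom called 0 each (0.0738% and 0.00591% of all features), also with 0 at an unadjusted p under 0.05. In the fit 8 members were higher and 17 lower in cKO, with a median log2 fold change of −0.04 beside −0.01 over all tested features. Summed by cluster, Hoxa had 48.1 ± 4.45 CPM for WT (SD, n = 4) against 49.5 ± 1.95 for cKO (SD, n = 3), and Hoxb 43.8 ± 5.06 and 41.6 ± 0.883 CPM. The Hoxc sum was 21.04 ± 10.8 CPM in WT and 20.1 ± 11.1 in cKO, and the Hoxd sum 11.3 ± 4.15 and 12.01 ± 4.63 CPM. All 4 differences were smaller than the larger SD of their groups.

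The member with the smallest p was Hoxa2, a hindbrain and branchial arch gene. It was counted at 5.73, 5.13, 5.501 and 5.02 CPM in WT replicates 1 to 4 and 6.44, 6.099 and 6.41 CPM in cKO replicates 1 to 3. Every cKO library lay above every WT library, the only such case among the 25 members where 2.72% of all tested features had groups that did not overlap. Its group levels were 5.34 ± 0.329 CPM for WT (SD, n = 4) against 6.32 ± 0.1895 CPM for cKO (SD, n = 3) (log2 fold change 0.24, SE 0.151, 95% interval −0.10 to 0.58), and with an unadjusted p of 0.147 it did not pass (edgeR adjusted p = 0.9999). Hoxa6, of the group active in pancreatic mesenchyme, was next with 26, 13, 32 and 11 counts in WT replicates 1 to 4 and 8, 12 and 22 in cKO replicates 1 to 3 (log2 fold change −0.59, SE 0.455, 95% interval −1.62 to 0.44). Its groups overlapped. Hoxa4, a cervical and thoracic gene, followed with 5.62, 4.71, 3.82 and 5.79 CPM in WT replicates 1 to 4 and 4.08, 4.86 and 4.09 CPM in cKO replicates 1 to 3. Its groups overlapped too (log2 fold change −0.20, SE 0.206, 95% interval −0.66 to 0.27).

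How small a change could have been seen differed along the code. For Hoxa5 the 95% interval of the log2 fold change ran from −0.17 to 0.41, for Hoxb4 from −0.38 to 0.20 and for Hoxb6 from −0.29 to 0.44. For Hoxc9 it ran from −4.49 to 3.52, and its fitted value of −0.49 was 0.51 without WT replicate 1, 0.06 without either cKO replicate 2 or cKO replicate 3, and −4.30 without cKO replicate 1. The 6 widest intervals were those of Hoxc9, Hoxa10, Hoxc8, Hoxa9, Hoxc10 and Hoxc6, in that order, and that of Hoxc6 ran from −2.17 to 2.00.

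**Figure D5:**
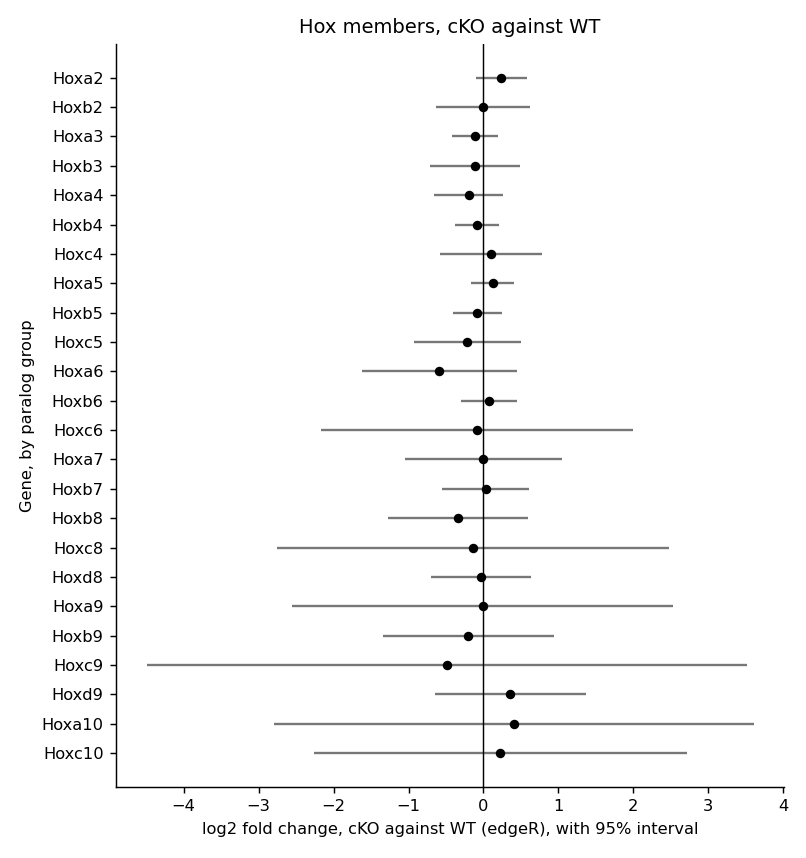
Fitted log2 fold change (cKO against WT) of 24 of the 25 tested Hox genes, by paralog group from top to bottom, with 95% intervals from edgeR. Every interval includes 0; that of Hoxa5 is narrow (−0.17 to 0.41) and that of Hoxc9 spans −4.49 to 3.52.

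Other transcripts of the clusters were few. Of 46 further genes annotated inside the clusters 22 had a row, 10 were tested and 0 were called. The antisense RNA Hoxaas2 had 2.45 ± 0.477 CPM for WT (SD, n = 4) against 2.71 ± 0.358 for cKO (SD, n = 3), and Hotairm1, at the anterior end of Hoxa, 1.85 ± 0.444 and 1.91 ± 0.396 CPM. 5730596B20Rik, in the same list, had 1.87 ± 0.288 and 1.95 ± 0.712 CPM. Antisense reads cannot be told apart from Hox reads where exons overlap, and 16 of the 39 Hox genes share exon bases with another gene.

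Of the genes that act with or on the clusters edgeR called 0 of 63 tested in 7 lists. Of the 9 TALE cofactors all were tested, 1 was higher in the fit, and Meis2 and Meis1 had 127 and 77.2 CPM over the 7 libraries. Meis1, the member with the smallest p, had 80.1 ± 5.196 CPM for WT (SD, n = 4) against 73.4 ± 2.17 for cKO (SD, n = 3). Of the ParaHox and Cdx genes Pdx1 had 70.4 CPM, and was the 1 tested gene of the 4 with a row. It specifies the pancreatic epithelium, and it did not pass the test (72.6 ± 6.98 and 67.4 ± 15.99 CPM in WT and cKO).

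Of the 13 tested genes of retinoic acid synthesis, binding and breakdown, 9 were higher in the fit, Rxra, Aldh1a1 and Rxrb had the most counts, at 101, 81.7 and 74.3 CPM, and Aldh1a2, the synthesising enzyme of the embryonic mesoderm, had the smallest p (29.8 ± 3.28 CPM in WT and 35.9 ± 9.13 in cKO). Of the 21 Polycomb genes, which keep silent Hox genes off, 7 were higher in the fit, and Cbx6, Phc2 and Suz12 had the most counts, at 248, 141 and 122 CPM. Cbx8, with the smallest p of this list, had 11.5 ± 0.428 and 10.3 ± 0.593 CPM in WT and cKO. Of 10 tested Trithorax-side genes, which keep them on, 1 was higher, with Psip1, Wdr5 and Ash2l at 126, 109 and 104 CPM and Dot1l, with the smallest p, at 106 ± 5.39 CPM in WT and 94.1 ± 13.2 in cKO. Of 3 tested posterior growth genes 1 was higher. The receptors Tgfbr1 and Acvr2b had 105 and 12.2 CPM, and Gdf11, the ligand that sets the onset of posterior Hox genes, stood at 19.9 ± 3.06 CPM in WT and 19.97 ± 2.03 in cKO. Of the 6 tested non-coding RNAs of the clusters 4 were higher, and the smallest p belonged to Hoxb3os (0.7798 ± 0.107 and 0.509 ± 0.332 CPM). None of these genes had an unadjusted p under 0.05 with edgeR. The Trithorax genes summed to 808 to 968 CPM in WT and 734 to 913 in cKO. The TALE cofactors summed to 521 to 566 CPM in WT and 487 to 570 in cKO. How many of all tested features were higher in the fit is not given here, so these counts of direction are not read as results.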

How the data were processed

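The authors deposited 1 table of raw counts per gene for the 7 libraries. The submitters' processing notes name HISAT2, StringTie, featureCounts and the build mm39. Versions and settings are not stated in the labels. The labels' protocols describe poly-T selection, random priming and no strand marking. All 7 columns of counts were used and 0 were left out. The column heading of WT replicate 4 carries the number 7 where the other 6 carry 6, and what it marks is not stated, so a difference of handling between that library and the rest cannot be told apart from the embryo. Features without an Ensembl identifier (315) held 0.206% of the counts. Replicates are separate animals, and no pair of libraries was alike within counting noise.

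Gene names, exon lengths and neighbours came from GENCODE M21, whose build GRCm38 differs from that of the counts, so none of its coordinates are given. Promoters and their coordinates came from RefSeq on GRCm38.p6, so the coordinates printed with the promoters are not on the build of the counts (mm39) either. CPM were scaled by TMM factors (0.952 to 1.04). The test was edgeR 4.0.16 (R 4.3.3) quasi-likelihood with filterByExpr, robust estimation and the group as the design, which left 16910 features, with Benjamini-Hochberg adjustment over all of them and a threshold of 0.05. It was tested on simulated data first. There it recovered 14.7% of 1.5-fold, 52% of 2-fold and 87.3% of 4-fold changes, and 7.07% of its calls were false. Alternatives were DESeq2 1.42.0, limma-voom (limma 3.58.1), other scalings and filters, a replicate block, and leaving out libraries. No p was computed for a sum over Hox genes.

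The members, the 17 marker and 7 pathway lists (225 entries, 210 with a row, 181 tested) and the rules were chosen with earlier results of these data known. By rule, values in every library were given for the 6 highest members per kilobase, the 3 with the smallest p, and the 4 with the largest and 2 with the smallest BCV. Hoxa9, Hoxc6, Hoxa11os, Eya1, Osr1, Pax2, Pax8, Umod and Dbh were chosen after their values were seen, as was the order of WT replicates 1 and 3 and cKO replicate 1. Of each pathway list up to 3 of the most abundant genes and the one with the smallest p were named. Some members, markers, cofactors and sequences that the rules would name are not reported here. Intervals for counts of 0 cover counting error only.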

Additional observations from a re-analysis of the deposited data

Results flagged for a closer look

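Of 30 sets of 4 WT values examined, 1 had a sample far from the others, and chance flags about 1 in 20. It was Hoxa10, whose lowest WT library, replicate 2, stood at 0 CPM, with 1.84, 1.56 and 1.63 CPM in WT replicates 1, 3 and 4. The same library was the lowest for 12 of the 14 tested Hox genes of groups 6 to 10 and held the lowest sum of neuron markers (202 CPM), whose part in this value was not tested. How often this library was the lowest over all tested features is not given here.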

How the results depend on the processing

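The count of Hox genes called between cKO and WT was 0 in all 18 alternatives, among them the fit with the replicate block (0 called, smallest adjusted p = 0.974 in edgeR's quasi-likelihood test). Same-numbered libraries had correlations of 0.284, 0.419 and 0.0597 in their deviations. Among the WT libraries, cKO replicate 1 correlated best with replicate 1, and cKO replicates 2 and 3 both with replicate 2. Whether the numbers mark pairs is not stated in the labels and was not settled by these values. The main fit did not pair the samples, and the replicate block was kept as an alternative. The 1 member without overlap (Hoxa2) became 1 to 3 members when single libraries were left out, 3 without WT replicate 4 and cKO replicate 1, and 3 without WT replicate 3 and cKO replicate 3, since fewer libraries overlap less often. The log2 fold change of Hoxc9 ran from −4.30 to 0.51 when single libraries were left out, reaching 0.51 once WT replicate 1 was dropped and 0.06 once either cKO replicate 2 or cKO replicate 3 was, and was 0.14 without WT replicate 3 and cKO replicate 3, −4.59 without WT replicate 4 and cKO replicate 1, and −1.36 with the replicate block. The cause was not tested. Hoxa2 stood at 3.82 CPM per kb in place of 3.25 when its whole CPM was divided by the shorter length of its unshared exons. For 2610035D17Rik, the log2 fold change of −1.76 passed with no filter (−1.76, adjusted p = 0.0121), with DESeq2 (−1.76, adjusted p = 9.3e-10) and with the replicate block (−1.77, adjusted p = 0.043). It ran from −2.02 to −1.61 when single libraries were left out (adjusted p from 0.191 to 0.631). Members at a mean of 1 CPM numbered 24, or 19 at a minimum of 2 CPM and 25 at 0.5 CPM. The differences of the cluster sums moved by less than 1 SD in every alternative, but that of Hoxc ran from −0.44 to 0.33 on the log2 scale when single libraries were left out. Depth limits the members of groups 11 to 13, whose counts were 0 to 2 in WT replicate 2 and cKO replicates 2 and 3 and at most 25 (Hoxa11) in any library.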
